A study of Mus musculus with 16 samples.

Results

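The 10 immediate early genes Fos, Fosb, Jun, Junb, Jund, Egr1, Ier2, Atf3, Dusp1 and Klf6 were followed through 16 bulk RNA-seq libraries of mouse hematopoietic progenitors. They were taken by name, as the AP-1 subunits and other immediate early genes of a list, from 47937 genes in the count tables. Of these, 11831 genes passed the filter on low counts (a mean above 100 counts in at least 1 group), and 9 of the 10 members were among them. Atf3, with at most 160 counts in a library, did not pass and is given by its counts alone. The libraries came from multipotent progenitors of C57BL/6 bone marrow. MPP3, the myeloid-biased population, were sorted as LSK (lineage-negative, Sca1+, cKit+) CD150- CD48+ cells, and MPP4, the lymphoid-biased population, by the same gate with Flt3 in addition. As the labels state the MPP3 gate, it does not leave out Flt3+ cells.

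Per the labels, the 4 WT mice were Ebf1fl/fl Tie2Cre+/+ and the 4 KO mice Ebf1fl/fl Tie2Cre +/cre, so that both groups had floxed alleles of Ebf1, which encodes a B lineage transcription factor, and only the KO mice had the Cre transgene. The text of the series design instead gives Tie2Cre to both and unfloxed alleles to the controls, and the study's methods allow either kind of control. Cre driven by the Tie2 promoter is active in endothelial as well as hematopoietic cells, so the deletion was not limited to the sorted progenitors. The mice are called WT1 to WT4 and KO1 to KO4 after the replicate numbers in the labels. WT1, WT2, KO3 and KO4 were female and the others male. WT1 to WT4 were 12, 11, 12 and 11 weeks old, and KO1 to KO4 were 10, 9, 11 and 11 weeks old. The MPP3 and the MPP4 library of 1 genotype and number were taken as those of 1 mouse, since their labels give the same sex and age; no label states this outright, and every comparison within a mouse rests on it.

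Immediate early genes are transcribed within minutes of a stimulus, without new protein synthesis, from promoters that bind factors such as SRF and CREB once MAP kinases have activated them. Products of the Fos and Jun families pair as AP-1, a dimer that binds DNA, while others of these genes encode zinc finger factors or shut the kinase signal off again. Their transcripts are also known to respond to the handling of tissue; handling times were not analysed here.

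Library totals ran from 24823708 to 48703193 counts, so that even a member at 10 CPM (counts scaled to library size, here by TMM normalisation) was read from over 200 counts. Flt3, the surface receptor that divides the sorts, was lower in MPP3 than in MPP4, with log2 fold changes of −2.13 in WT and −2.03 in KO (edgeR quasi-likelihood test, FDR 7.714e-10 and 6.356e-10). In MPP4, Ebf1 counts went against the genotype label: WT1 to WT4 had 187, 98, 199 and 263 counts, and KO1 to KO4 had 817, 928, 488 and 642. Gene counts do not separate intact from recombined Ebf1 transcripts, so every direction for KO against WT rests on the labels. Of the B cell receptor genes Cd79a and Cd79b, both known targets of EBF1 and chosen after their values were seen, Cd79a was lower in the libraries labelled KO (−3.01 in MPP3 and −3.88 in MPP4; over both populations −3.45, FDR 0.0183, edgeR) and Cd79b was not called (0.05, FDR 0.707). On the sum of both libraries of a mouse, the FDR of Cd79a was 0.127.

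The members differed widely in level. Per kilobase of annotated exon, the median over the 16 libraries was 211 CPM for Ier2, 190 for Jun, 103 for Fos, 80.0 for Junb and 51.3 for Dusp1. It was 17.3 for Klf6, 7.45 for Jund, 4.74 for Egr1, 1.40 for Fosb and 0.128 for Atf3. Since each gene spanned a range between mice of several fold, as given next, neighbours in this order such as Ier2 and Jun, or Fos and Junb, overlapped across libraries. The value of Jund needs care, because 877 of its 1668 exonic bases (52.6%) are shared with the antisense gene Gm11175, which had 0 counts in all 16 libraries. Whether strand was used in counting is not given in the sources used here, and reads in such a shared stretch may have been assigned to neither gene. Junb shares 7.52% of its exonic bases with Prdx2 and Jun 7.28% with Junos, both on the opposite strand.

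Fos (ENSMUSG00000021250, GRCm38 chromosome 12, 85473890 to 85477273, plus strand) encodes the AP-1 subunit that is almost absent from resting cells. In MPP3 it was at 68.0, 192, 1748 and 950 CPM in WT1 to WT4 and at 304, 12.4, 1641 and 113 CPM in KO1 to KO4. In MPP4 it was at 70.7, 217, 2078 and 1061 CPM in the WT mice and at 268, 16.5, 1944 and 110 CPM in the KO mice. WT3, KO3 and WT4 were high in both populations, KO2 was lowest in both, and the ranges of WT and KO overlapped over most of their length. The highest mouse exceeded the lowest of its group by 25.7-fold in MPP3 of WT, 132-fold in MPP3 of KO, 29.4-fold in MPP4 of WT and 118-fold in MPP4 of KO. In bulk samples, a lower share of cells with the transcript and less of it per cell cannot be told apart.

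Jun (ENSMUSG00000052684, chromosome 4, 95049034 to 95052222, minus strand), the main partner of Fos in AP-1, had 317, 622, 2160 and 1516 CPM in MPP3 of WT1 to WT4 and 590, 125, 2157 and 338 CPM in MPP3 of KO1 to KO4. In MPP4 the values were 286, 629, 2156 and 1390 CPM in WT and 457, 83.6, 2025 and 286 CPM in KO. The order of the mice was the same as for Fos in each group but with a smaller range, from 6.81-fold in MPP3 of WT to 24.2-fold in MPP4 of KO. Fosb (chromosome 7, 19302696 to 19310051, minus strand), a close relative of Fos, had 5.78, 9.30, 54.1 and 19.3 CPM in MPP3 of the WT mice and 11.2, 0.631, 33.4 and 6.74 CPM in MPP3 of the KO mice. In MPP4 it had 4.46, 6.97, 58.8 and 24.0 CPM in WT, and 8.22, 41.5 and 5.49 CPM in KO1, KO3 and KO4, against a single count in KO2. Again WT3 and KO3 were highest and KO2 lowest.

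Junb (chromosome 8, 84974484 to 84978718, minus strand), a Jun family subunit with a role in restraining myeloid proliferation, had the narrowest range of the AP-1 genes in MPP3. Its MPP3 values were 139, 163, 464 and 284 CPM in WT and 176, 96.5, 372 and 109 CPM in KO, and its MPP4 values were 114, 207, 844 and 503 CPM in WT and 192, 87.9, 579 and 118 CPM in KO. Jund (chromosome 8, 70698949 to 70700616, plus strand), which in many cell types is expressed without a stimulus, was low here, at 2.62, 4.89, 21.1 and 21.5 CPM in MPP3 of WT and 12.98, 6.34, 34.9 and 4.88 CPM in MPP3 of KO. In MPP4 it was at 2.95, 2.88, 29.2 and 22.8 CPM in WT and at 14.97, 11.9, 58.9 and 6.39 CPM in KO. Jund was the AP-1 gene in which KO2 was not lowest.

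Of the other transcription regulators, Egr1 (chromosome 18, 34859823 to 34864984, plus strand), a zinc finger factor induced through SRF, repeated the pattern of Fos. It had 7.61, 11.1, 195 and 107 CPM in MPP3 of WT, 32.2, 4.78, 178 and 4.90 CPM in MPP3 of KO, 9.94, 18.3, 220 and 124 CPM in MPP4 of WT and 24.2, 4.77, 177 and 6.42 CPM in MPP4 of KO. Ier2 (chromosome 8, 84661331 to 84662852, minus strand), a small nuclear protein, had 197, 308, 888 and 669 CPM in MPP3 of WT, 359, 245, 901 and 272 CPM in MPP3 of KO, 178, 284, 1043 and 769 CPM in MPP4 of WT and 334, 217, 933 and 260 CPM in MPP4 of KO. Both were high in WT3, KO3 and WT4, and Ier2 was lowest in WT1.

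Klf6 (chromosome 13, 5861482 to 5870394, plus strand), a Krüppel-like factor, had 44.0, 62.6, 365 and 197 CPM in MPP3 of WT, 80.7, 57.2, 365 and 54.7 CPM in MPP3 of KO, 52.0, 75.4, 349 and 173 CPM in MPP4 of WT and 76.4, 52.3, 343 and 73.5 CPM in MPP4 of KO. Dusp1 (chromosome 17, 26505590 to 26562128, minus strand), the phosphatase that inactivates MAP kinases and so closes the feedback loop, had 97.7, 167, 976 and 675 CPM in MPP3 of WT and 225, 45.1, 1161 and 122 CPM in MPP3 of KO. In MPP4, Dusp1 had 77.5, 173, 875 and 578 CPM in WT and 129, 26.3, 937 and 112 CPM in KO. Atf3 (chromosome 1, 191170296 to 191218039, minus strand), a stress-induced repressor of the ATF family, had 6, 6, 47 and 26 counts in MPP3 of WT, 12, 0, 40 and 2 counts in MPP3 of KO, 1, 5, 160 and 24 counts in MPP4 of WT and 1, 0, 47 and 18 counts in MPP4 of KO. Its counts were highest in WT3 and KO3, and at 0 in both libraries of KO2, where the limit that a count of 0 allows is 3 counts.

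**Figure D1:**
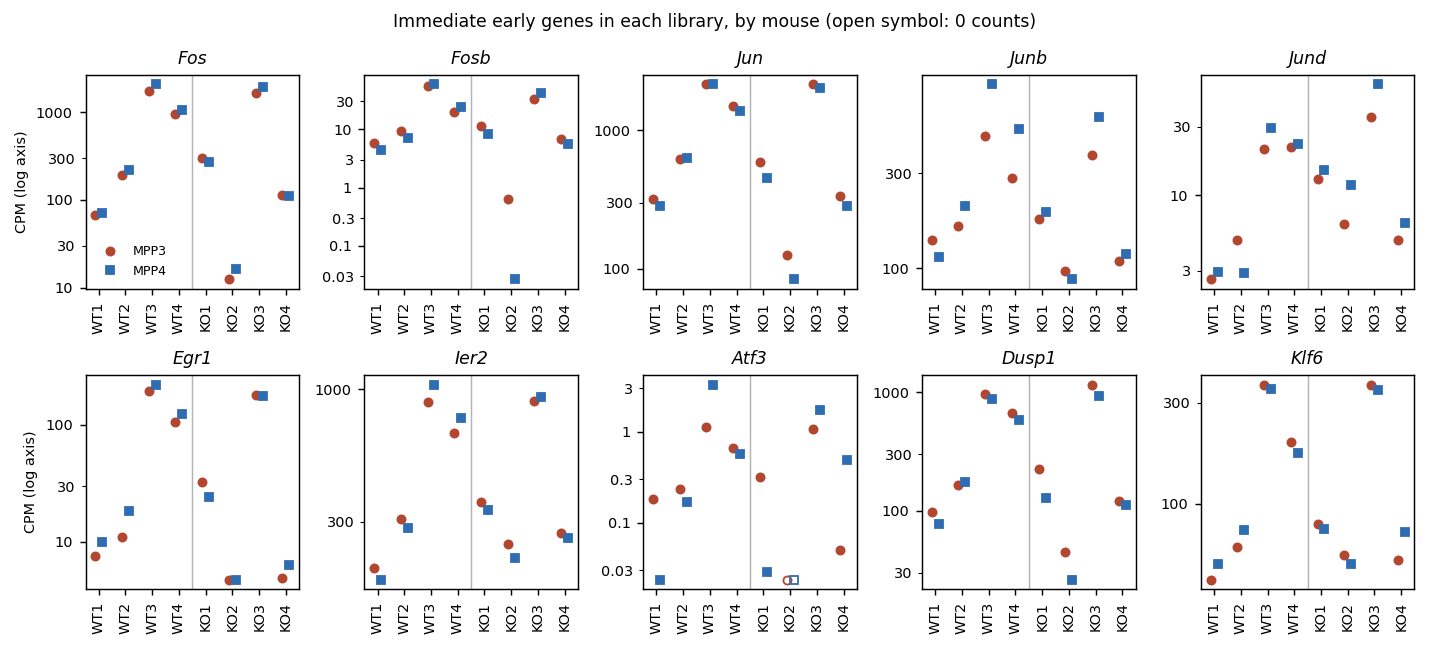
CPM of the 10 genes on a log axis, for the MPP3 (circle) and the MPP4 (square) library of each of 4 WT and 4 KO mice; open symbols mark 0 counts, drawn at the lowest value above 0. Both symbols of a mouse lie close together for most genes, WT3, KO3 and WT4 hold the highest values, and the WT and KO mice overlap.

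Averaged over the populations, WT3, KO3 and WT4 were the 3 highest mice for each of the 9 members that passed the filter. The lowest mouse was KO2 for 6 members and WT1 for the other three, Jund, Ier2 and Klf6. The highest mice thus held both sexes and both genotypes, at 12, 11 and 11 weeks of age, and KO2, at 9 weeks, was the youngest mouse.

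The promoters of 4 members are shown to set the members' shared movement beside what lies ahead of their start sites: Fos, the most variable member, Junb and Dusp1, whose windows also hold a match, and Jun, whose window holds none. They were chosen with the matches known. RefSeq (GRCm38.p6) gave a promoter for 8 of the 10, and the 250 bases before the start were searched on both strands. The motifs were the CRE (cyclic AMP response element) TGACGTCA, its core TGACG, which the CRE contains, the AP-1 site TGACTCA and the CArG box, the site of SRF. Capitals mark matches of the CRE or its core on either strand. The windows are chr12:85473640-85473889 (plus strand) for Fos, chr8:84978749-84978998 (minus) for Junb, chr17:26508473-26508722 (minus) for Dusp1 and chr4:95052223-95052472 (minus) for Jun, each written 5′ to 3′ towards the start.
Fos: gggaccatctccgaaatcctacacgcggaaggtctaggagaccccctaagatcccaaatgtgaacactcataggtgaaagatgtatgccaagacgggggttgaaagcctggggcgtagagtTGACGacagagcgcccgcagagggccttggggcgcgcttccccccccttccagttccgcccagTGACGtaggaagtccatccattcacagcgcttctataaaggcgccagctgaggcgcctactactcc
Junb: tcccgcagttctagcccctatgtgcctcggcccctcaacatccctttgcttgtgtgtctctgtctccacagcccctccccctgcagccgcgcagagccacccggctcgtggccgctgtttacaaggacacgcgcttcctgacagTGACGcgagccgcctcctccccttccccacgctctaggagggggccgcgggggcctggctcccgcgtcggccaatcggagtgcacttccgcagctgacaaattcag
Dusp1: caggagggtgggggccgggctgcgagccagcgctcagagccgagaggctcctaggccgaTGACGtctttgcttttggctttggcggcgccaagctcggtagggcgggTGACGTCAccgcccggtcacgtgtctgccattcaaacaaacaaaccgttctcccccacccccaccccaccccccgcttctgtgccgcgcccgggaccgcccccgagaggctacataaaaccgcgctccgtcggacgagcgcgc
Jun: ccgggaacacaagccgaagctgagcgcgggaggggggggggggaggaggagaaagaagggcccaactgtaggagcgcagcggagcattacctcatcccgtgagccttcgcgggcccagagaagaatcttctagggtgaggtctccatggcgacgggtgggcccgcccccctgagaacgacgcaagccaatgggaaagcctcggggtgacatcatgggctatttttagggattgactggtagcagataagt
The core was found in 5 of the 8 promoters (Fos, Fosb, Junb, Atf3 and Dusp1) and not in those of Jun, Jund and Klf6, against 17.8% of 32817 mouse promoters of the same length. In Fos the nearer one began 66 bases before the start and the farther one 129, and in Junb it began 106 bases before the start. These starts are RefSeq's and not always the ends of the GENCODE genes given with each member. They are the same base for Fos and Jun and lie within 30 bases for Fosb, Junb and Klf6, while that of Jund lies 1210 bases ahead of the GENCODE gene and those of Atf3 and Dusp1 lie 34706 and 53656 bases inside it. Distances before a start refer to the RefSeq start. The full CRE occurred in Dusp1 alone, 143 bases before its start, and in 1.55% of all promoters. No member's window held the AP-1 site (4.46% of promoters) or the CArG box (1.47%), which says only that these letters were not in these windows.

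The spread between mice was measured as the SD of log2 CPM within groups, pooled over the 4 groups of 4. It was 2.56 for Fos, 2.505 for Fosb, 2.34 for Egr1, 1.83 for Dusp1, 1.56 for Jun, 1.499 for Jund, 1.29 for Klf6, 1.06 for Junb and 1.01 for Ier2. Over the genes tested the median was 0.205 and the 90th percentile 0.523. Each of the 9 members lay at or above the 98.0th percentile, and Fos was 18th of all genes. These are descriptions, with no test.

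That spread lay almost wholly between mice and not between the MPP3 and MPP4 sorts of 1 mouse. For Fos, the mean deviation of a mouse, taken over its 2 libraries, had an SD between mice of 2.56. The distance of either library from that mean had an SD of 0.0980. The corresponding values were 1.56 and 0.0792 for Jun, 1.00 and 0.0790 for Ier2, 2.33 and 0.145 for Egr1, and 1.83 and 0.134 for Dusp1. The largest value within mice was that of Fosb, at 0.545, which includes the single count in MPP4 of KO2. Over all genes tested, the medians were 0.161 between mice and 0.111 within.

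The agreement of both libraries of 1 mouse was therefore close. Across the 8 mice, the deviations from the group mean in MPP3 and in MPP4 had a Pearson r of 0.998 for Ier2, 0.998 for Jun, 0.997 for Fos, 0.994 for Egr1, 0.991 for Dusp1, 0.987 for Klf6, 0.987 for Fosb, 0.984 for Junb and 0.966 for Jund. Spearman's rho was 1 for 6 members, 0.976 for Junb, 0.929 for Klf6 and 0.905 for Jund. Without the 2 mice farthest from the median in MPP3, r lay between 0.936 (Jund) and 0.997 (Fos). The median r over genes tested was 0.401, and 575 genes (4.86%) had an r above 0.9. By rank of r, the members lay between 5th (Ier2) and 124th (Jund) of 11831.

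An exact two-sided permutation test over the 576 ways to pair the mice within their genotype gave p = 0.00174, the smallest these pairings can give, for 7 of the 9 members. It gave 0.00521 for Klf6 and 0.00694 for Jund. The members were chosen with earlier results of these data known, which these p-values do not take into account. As 147 of the genes tested (1.24%) reached the same smallest p, the Benjamini-Hochberg adjusted values over all genes were 0.140 for the 7 members, 0.156 for Klf6 and 0.166 for Jund. With a threshold of 0.1, 0 of the 9 members were called, against a background of 0% of genes called. For rho, p was between 0.00174 and 0.0174 and the adjusted value between 0.220 and 0.305.

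**Figure D2:**
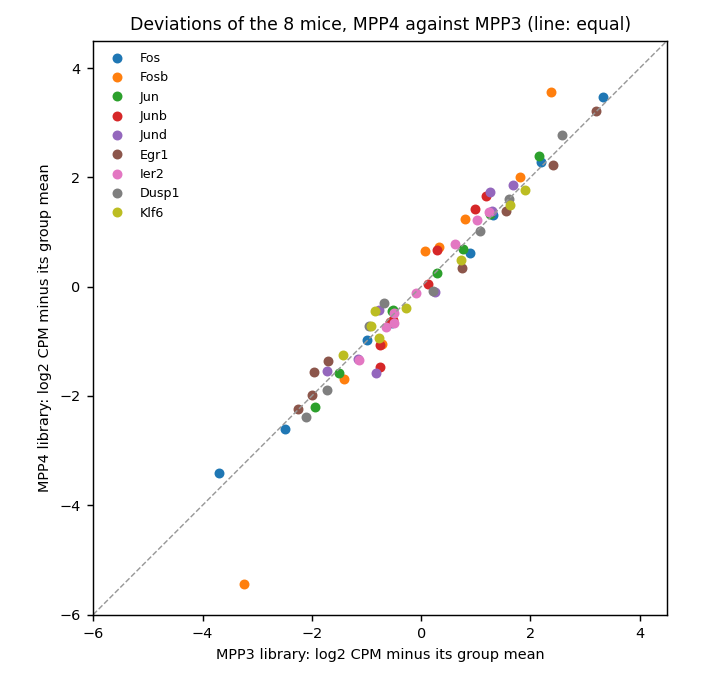
Each point is 1 gene in 1 mouse, with the deviation of log2 CPM from its group mean in the MPP3 library on the x axis and in the MPP4 library on the y axis, for the 9 genes tested in 8 mice; the dashed line marks equal deviations. The points follow the line, with r from 0.966 to 0.998 per gene, and the point farthest from it is Fosb in KO2, where MPP4 had 1 count.

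**Figure D3:**
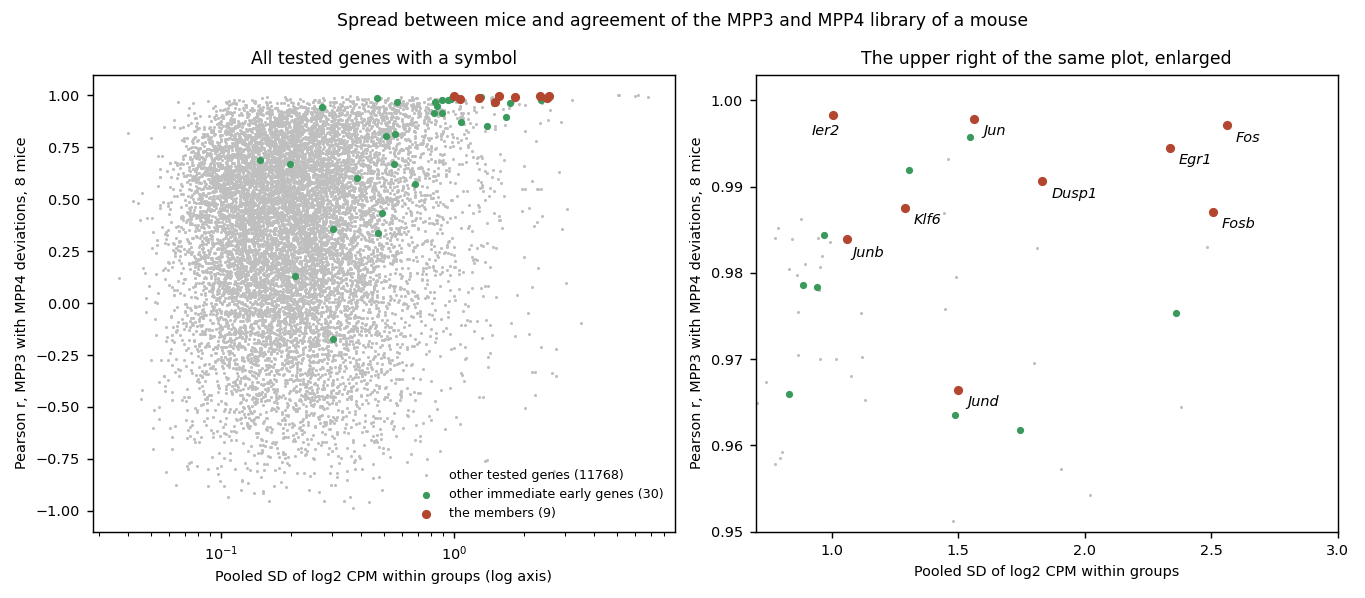
Pooled SD of log2 CPM within groups (x axis, log scale on the left) against the Pearson r of MPP3 with MPP4 deviations over 8 mice (y axis), per gene; red points are the 9 members, green points 30 other immediate early genes and grey points the rest. The right panel enlarges the upper right corner, where all 9 members lie, with SDs from 1.01 to 2.56.

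The members also moved with each other. Over the 36 pairs of the 9 members, the r of their deviations across the 16 libraries ranged from 0.646 (Fosb with Jund) to 0.994 (Fos with Jun), with a median of 0.938. These libraries come in pairs from 8 mice, so the correlations are given as a description. The 5 other genes whose deviations were most like the mean standardised deviation of the members over the 16 libraries were Zfp36 (r 0.990), Ppp1r15a (0.986), Rgs1 (0.986), Ccl3 (0.983) and Ccl4 (0.979). Zfp36 encodes tristetraprolin, which binds AU-rich elements and destabilises mRNAs, Ppp1r15a is the stress-induced subunit of the phosphatase that acts on eIF2alpha, Rgs1 regulates G protein signalling, and Ccl3 and Ccl4 are chemokines. Zfp36 was at 129, 279, 1349 and 802 CPM in MPP3 of WT1 to WT4 and at 382, 87.6, 1142 and 187 CPM in MPP3 of KO1 to KO4. The mice stood in the order seen for Fos. Of 11822 genes that are no members, 26 had an r above 0.9 and 77 above 0.8.

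Whether the 2 genotypes differed was asked within each population. In MPP3, the log2 fold change of KO over WT was −0.52 ± 1.37 (SE) for Fos, −0.77 ± 1.16 for Fosb, −0.52 ± 0.91 for Jun, −0.48 ± 0.65 for Junb, 0.23 ± 0.88 for Jund, −0.55 ± 1.33 for Egr1, −0.22 ± 0.61 for Ier2, −0.30 ± 1.07 for Dusp1 and −0.26 ± 0.80 for Klf6 (n = 4 mice each). The point estimate was below 0 for 8 of the 9 members, with a median of −0.48 against −0.01 over all genes tested. None passed the edgeR quasi-likelihood test at an FDR under 0.1 (smallest FDR 0.859), and 0.0676% of all genes were called. At an unadjusted p under 0.05 there were 0 of the 9 members and 10.5% of all genes. The 95% intervals were wide, from −3.41 to 2.38 for Fos and from −1.51 to 1.08 for Ier2. For Fos, changes of several fold in either direction lay within the interval. The upper limit was lower for Ier2, at a 2.11-fold increase, and for Junb, at 1.86-fold. DESeq2 also called 0 members here and in each comparison below that has no mouse term.

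In MPP4, the log2 fold changes were −0.55 ± 1.37 for Fos, −0.79 ± 1.15 for Fosb, −0.65 ± 0.91 for Jun, −0.77 ± 0.65 for Junb, 0.66 ± 0.88 for Jund, −0.82 ± 1.33 for Egr1, −0.38 ± 0.61 for Ier2, −0.50 ± 1.07 for Dusp1 and −0.26 ± 0.80 for Klf6. No member was called (smallest FDR 0.642, for Junb, edgeR), and 0.0169% of all genes were called. At an unadjusted p under 0.05 there were 0 of the 9 members and 12.8% of all genes. The signs of these estimates depended on single mice. Without both libraries of WT3, Fos, Fosb, Egr1, Ier2, Dusp1 and Klf6 were above 0 in each population (Fos at 0.36 in MPP3 and 0.38 in MPP4). Without KO3, Fos was at −2.37 in MPP3 and −2.70 in MPP4, and Jund fell below 0 in both. With age as a further term, 8 members in MPP3 and 7 in MPP4 changed sign (Fos to 1.08 and 0.98); the WT mice were 11 or 12 weeks old and the KO mice 9 to 11. None of the alternatives tried called a member between the genotypes.

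Over both populations, the fit of all 16 libraries called 7.67% of genes but 0 of the 9 members, with log2 fold changes from −0.78 ± 0.82 (Fosb) to 0.45 ± 0.62 (Jund) and a smallest FDR of 0.473. That fit treats the 2 libraries of a mouse as independent; on the sum of both libraries, over 8 mice, no member was called either. The interaction, which asks whether the KO effect differed between MPP3 and MPP4, called 0% of genes and 0 members (0 members and 2.28% of genes at an unadjusted p under 0.05).

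**Figure D4:**
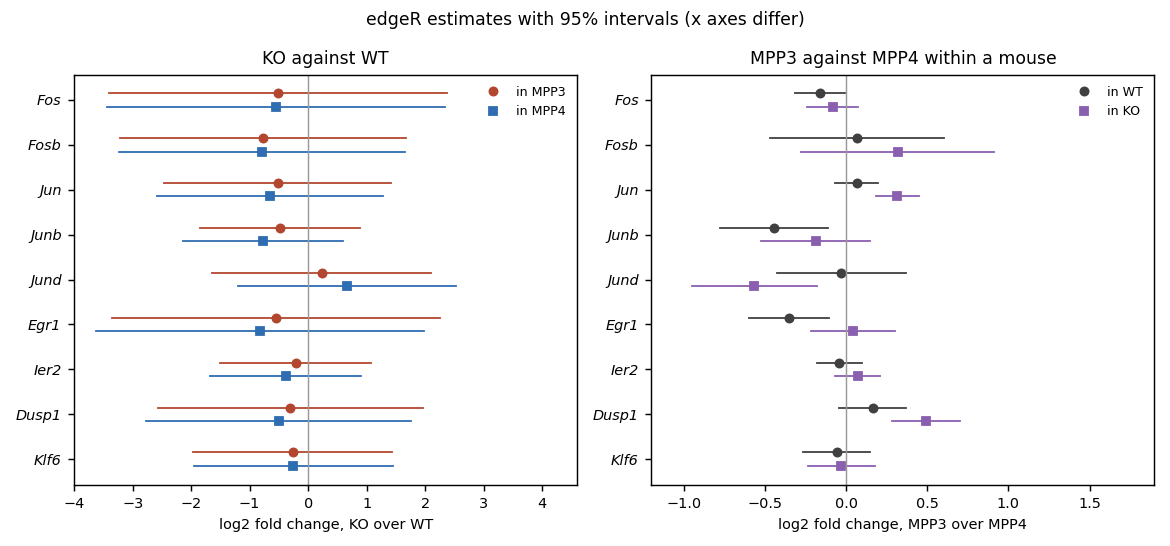
Log2 fold changes with 95% intervals from edgeR for the 9 members: KO over WT in each population on the left, and MPP3 over MPP4 with mouse as a term, in each genotype, on the right, on different x scales. All intervals on the left contain 0; on the right, those of Egr1 and Junb in WT lie below 0, as does that of Fos narrowly, and in KO those of Jun and Dusp1 lie above 0 and that of Jund below.

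Between the populations, the plain fit of 4 libraries against 4 called 15.1% of genes in WT and 17.9% in KO, and 0 of the 9 members in either (smallest FDR 0.629 and 0.738). Since both libraries of a mouse deviated together, the fit with mouse as a term was the more precise one. It called 24.8% of genes in WT and 28.3% in KO, and with it 2 members in WT and 3 in KO, shares of the 9 that are close to this background.

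In WT, Junb was lower in MPP3 than in MPP4 by 0.44 ± 0.15 on the log2 scale (FDR 0.0665, edgeR with mouse as a term). Its ratio of MPP3 over MPP4 was 1.22, 0.787, 0.550 and 0.565 in WT1 to WT4, below 1 in 3 of the 4 mice. Egr1 was lower in MPP3 by 0.35 ± 0.11 (FDR 0.0446), with ratios of 0.766, 0.606, 0.886 and 0.858, below 1 in all 4. The call of Junb was lost without WT3 (FDR 0.308) or WT4 (0.307), and that of Egr1 without WT2 (0.184).

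In KO, Jun was higher in MPP3 by 0.32 ± 0.06 (FDR 0.00239), with ratios of 1.29, 1.49, 1.06 and 1.18 in KO1 to KO4. Dusp1 was higher in MPP3 by 0.49 ± 0.10 (FDR 0.00256), with ratios of 1.74, 1.72, 1.24 and 1.09. Both were above 1 in all 4 KO mice, and both calls held without any 1 mouse (largest FDR 0.0162 for Jun and 0.0211 for Dusp1). Jund was lower in MPP3 by 0.57 ± 0.18 (FDR 0.0374), with ratios of 0.867, 0.533, 0.592 and 0.763, a call lost without KO2 or KO3 (both 0.167). The same fit gave Jun 0.06 ± 0.06 (FDR 0.532) and Dusp1 0.16 ± 0.10 (FDR 0.284) in WT.

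A difference of these population contrasts between the genotypes was tested as the interaction with mouse as a term, which called 0.0169% of genes and 0 members. The members with the smallest p were Jun (0.25 ± 0.09, unadjusted p = 0.0133, FDR 0.769 in edgeR), Dusp1 (0.33 ± 0.14, FDR 0.816) and Egr1 (0.39 ± 0.16, FDR 0.816). For Fos, the most variable member, the 2 populations differed by 0.16 ± 0.07 in WT (FDR 0.138) and 0.08 ± 0.07 in KO (FDR 0.477), both lower in MPP3 and both small beside its spread between mice.

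Of 38 further immediate early genes in a list, among them relatives of members such as Fosl2, Klf2, Klf4 and Dusp2, 30 passed the filter. Their median r between MPP3 and MPP4 was 0.905 and their median pooled SD 0.750, against 0.401 and 0.205 over all genes tested. The 4 most variable were Klf2 (SD 2.36), Nr4a1 (1.74), Klf4 (1.67) and Zfp36 (1.55), which encode a pair of Krüppel-like factors, an orphan nuclear receptor and tristetraprolin. Klf2 was at 2.62, 7.80, 35.1 and 43.2 CPM in MPP3 of WT and at 7.27, 2.26, 128 and 4.43 CPM in MPP3 of KO, so that KO3 stood above all others. The list was not uniform: Klf10 (SD 0.197), Nfkbia (0.148), Myc (0.272) and Gadd45b (0.303), chosen after their values were seen, varied less than most of the list, with Myc and Gadd45b above the median of 0.205 over all genes.

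None of the 30 was called between KO and WT within a population; the extremes were Nr4a1 (−1.35 ± 1.06 in MPP3 and −1.23 ± 1.04 in MPP4) at the low end, and Klf2 in MPP3 (0.67 ± 1.40) and Sgk1 in MPP4 (0.66 ± 0.44) at the high end. The median was −0.14 in MPP3 and −0.22 in MPP4. Over both populations 1 of the 30 was called, Csrnp1 (−0.33, FDR 0.0677, edgeR), against 7.67% of all genes; on the sum of both libraries of a mouse it was not called (FDR 0.224). Between the populations, without mouse as a term, Csrnp1 (−0.68) and Dusp2 (−1.11) were lower in MPP3 in WT (FDR 0.00263 and 0.0497). In KO, Csrnp1 (−0.88, FDR 0.000273) and Nfkbia (−0.27, FDR 0.0949) were lower and Maff (0.76, FDR 0.0350) higher in MPP3, in the same edgeR fit. These 2 and 3 calls of 30 stand beside 15.1% and 17.9% of all genes, so the list was not called more often than the background.

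Genes that act with or above the members were steadier, with a median pooled SD of 0.215 for partners and rivals and 0.229 for upstream genes. Of 15 genes for AP-1 partners and rivals, 11 passed, with a median r of 0.334, and 0 were called between KO and WT within a population (lowest Crem −0.47 ± 0.21 in MPP3 and Bach1 −0.40 ± 0.17 in MPP4; highest Batf2, 0.33 ± 0.39 and 0.92 ± 0.39). All 17 upstream kinases, SRF cofactors and Sprouty genes passed, with a median r of 0.649, and 0 were called within either population (lowest Spry1, −0.48 ± 0.43 and −0.82 ± 0.43; highest Mapk14, 0.29 ± 0.28, and Mapk3, 0.28 ± 0.14). Over both populations Mrtfa, an SRF cofactor, was the 1 gene of the 17 called (−0.39, FDR 0.0680, edgeR), against 7.67% of all genes, and it was not called on the sum of both libraries of a mouse (FDR 0.145). Their summed level ranged only from 1029 to 1311 CPM over the 16 libraries, while that of the 5 AP-1 members ranged from 200 to 5165 CPM. Of 9 heat shock genes, 8 passed and 0 were called (lowest Hspa1b, −1.29 ± 0.92 and −0.90 ± 0.92; highest Hspa8, 0.20 ± 0.18, and Hsp90aa1, 0.30 ± 0.10), with a median r of 0.962. Their median pooled SD was 0.266, but those of Hspa1a (2.48) and Hspa1b (1.80) lay within the range of the members.

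The level of Fos in a mouse, averaged over both populations, was set beside 15 other measures of its libraries over 8 mice, with an exact two-sided permutation test for 14 of them. With the summed level of the other immediate early genes it had r = 0.907 and rho = 0.952, and without the 2 mice farthest from the median r was 0.962. That list was chosen with the shared movement of these genes known, so this is a description with no test. None of the other 14 relations passed (values adjusted over the 15 of 0.576 or more for r). Each of these 14 is given with all 8 mice and then without the same 2 mice, those farthest from the median in Fos. Total counts gave r = 0.313 and 0.0326, the share of mitochondrial counts 0.0319 and −0.364, and age 0.538 and −0.356. The summed level of AP-1 partners and rivals gave 0.636 and 0.403, of upstream kinases and factors 0.488 and 0.910, and of heat shock genes −0.229 and −0.299. Gate markers gave 0.485 and 0.0584, stem cell markers 0.235 and −0.718, erythroid markers 0.481 and −0.168, and megakaryocyte and platelet markers 0.0914 and −0.158. Mature neutrophil markers gave −0.302 and −0.00208, monocyte and macrophage markers −0.290 and 0.435, B and plasma cell markers −0.00815 and −0.396, and T and NK cell markers −0.194 and 0.388. The sign changed in 7 of the 14.

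Markers of other cells were measured as well, and 0 of these lists had a relation with Fos that passed. Mature neutrophil markers, 5 of 10 of which passed the filter, summed to 23.3 to 53.7 CPM in MPP3 of WT, 22.1 to 96.6 CPM in MPP3 of KO, 4.80 to 11.1 CPM in MPP4 of WT and 7.84 to 20.7 CPM in MPP4 of KO. The granule genes Mmp8, Mmp9, Retnlg and Lcn2, the T cell genes Cd3e, Cd3d and Cd3g, and the B cell gene Ms4a1 were below the filter. The monocyte and macrophage list (7 of 10 passed) summed to 441 to 519 CPM in MPP3 of WT and 476 to 765 CPM in MPP3 of KO, and the B and plasma cell list (8 of 10) to 535 to 1636 and 377 to 719 CPM. Over all lists and both populations, WT and KO did not overlap in 4 of 30 summed levels. Of single genes tested, 4.58% did not overlap in MPP3 and 7.27% in MPP4. Megakaryocyte and platelet markers summed to 400 to 467 CPM in WT and 358 to 381 CPM in KO in MPP3, and to 142 to 160 CPM in WT and 73.7 to 131 CPM in KO in MPP4. Stem cell markers in MPP3 summed to 603 to 700 CPM in WT and 481 to 590 CPM in KO, and gate markers in MPP4 to 3712 to 4122 CPM in WT and 3311 to 3562 CPM in KO. Their part in the members' values was not tested.

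Within a population, Kit in MPP4 (−0.42 ± 0.07, FDR 0.0560, edgeR) was the one gene of the marker lists called between KO and WT, so that the gate markers (5 of 6 passed) held 1 call, as the lowest of their list, with Ly6a highest (0.44 ± 0.13). In MPP3, Kit (−0.22 ± 0.07) and Ly6a (0.46 ± 0.13) were again the extremes. The remaining lists held 0 calls within a population. Over both populations, in the fit that treats the 2 libraries of a mouse as independent, 14 of the 44 marker genes that passed (31.8%) were called, against 7.67% of all genes. Among gate markers Kit (−0.32, FDR 0.00598, edgeR) and Flt3 were lower in KO and Ly6a higher, and among stem cell markers Hlf (−0.55, FDR 0.0217), Meis1 and Mecom were lower. Csf1r (0.86, FDR 0.00866), Cd68 and C1qb of the monocyte and macrophage list and Cxcr2 of the neutrophil list were higher, Cd79a, Igkc and Mzb1 of the B and plasma cell list were lower, and 1 megakaryocyte and platelet marker was lower. The erythroid and the T and NK cell lists held 0 calls. On the sum of both libraries of a mouse, a fit applied to the lists after seeing the data and which called 0.0592% of genes, 0 of the 44 were called by edgeR (lowest FDR 0.112, for Kit, Flt3 and Csf1r), while 19 of them and 14.2% of all genes had an unadjusted p under 0.05. The extreme log2 fold changes of KO over WT within a population are given as values. Stem cell markers (6 of 10 passed) ran from Hlf (−0.52) to Procr (0.17) in MPP3 and from Mecom (−0.63) to Mllt3 (−0.08) in MPP4, and neutrophil markers from S100a8 (0.04 and −0.06) to Camp (1.25) and Ngp (0.98). Monocyte and macrophage markers ran from Lyz2 (0.19 and 0.06) to Adgre1 (1.70) and C1qb (1.14), and B and plasma cell markers from Igkc (−3.86 and −6.83) to Sdc1 (0.35) and Xbp1 (0.18). Erythroid markers (6 of 10) ran from Car1 (−0.63) to Hbb-bt (0.41) in MPP3 and from Klf1 (−0.84) to Hbb-bs (0.82) in MPP4. Megakaryocyte and platelet markers (5 of 8) ran from Pf4 (−0.27) to Gp1ba (0.22) in MPP3, with Itga2b (0.04) highest in MPP4, and T and NK cell markers (2 of 8) from Klrb1c (−0.39 and 0.02) to Nkg7 (0.17 and 0.15). The part of these cells in the members' levels was not tested beyond the relations with Fos.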

How the data were processed

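RNA of sorted MPP3 and MPP4 cells was sequenced as paired-end 100 bp reads from libraries of a low-input kit. Per the labels, the authors aligned reads with STAR (2.7.3a) to mm10 and counted them with featureCounts (2.0.0) into the deposited raw counts per gene, which were used here; the annotation release and the use of strand are not given in the sources used here, and a normalised table was not used. The counts of 47937 Ensembl genes were matched to symbols (47224), filtered (mean above 100 in any group) and TMM-normalised. edgeR (4.0.16, R 4.3.3, legacy quasi-likelihood F-test, Benjamini-Hochberg adjustment over 11831 genes, called at FDR under 0.1) was fitted to all 16 libraries. Log2 CPM for spread and agreement used a prior count of 2. The tests were checked on simulated counts, in which the genes changed between genotypes varied less between mice than the members do. That check therefore does not bear on the power for the members. Errors are SEs of the fit unless called SD.

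That same-numbered MPP3 and MPP4 libraries of a genotype come from 1 mouse is inferred, as no label states it. They share sex and age, and their deviations from the group means over genes correlated at 0.274 to 0.528 in the 8 mice, each above the best value with another mouse of the genotype (at most 0.291); mouse was therefore also used as a term. Replicates differed by a chi-square of 19.4 to 64.8 per gene, so no library was counted as a copy of another. Gene positions and overlaps came from GENCODE (GRCm38, as mm10) and promoters from RefSeq. Named were all 10 members, the 5 other genes most like them, and of each list the genes with the extreme fold changes; of the other immediate early genes also those called and the 4 most variable. The members and lists were chosen with earlier results of these data known. Alternatives were RLE scaling, DESeq2 (1.42.0), other filters, sex or age as a term, blocks, subsets, and each library or mouse left out. The limit of 3 counts behind a count of 0 covers counting error only. Some genes of the marker lists are not reported here.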

Additional observations from a re-analysis of the deposited data

Results flagged for a closer look

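In groups of 4 libraries, a library was singled out where its gap to the nearest other, divided by the group's range, exceeded Dixon's 95% critical value. Of 40 combinations of member and group, 10 did so on CPM. Chance flags about 1 in 20 groups of normally spread values, which CPM of genes that differ many-fold between mice are not, and the members move together, so these are not 10 separate events. On log2 CPM, a scale added after seeing the data, 0 of the 40 passed, and the ratios of these 10 fell to 0.415 to 0.799. On CPM the library was KO3, the highest KO mouse, in 9 of the 10. In MPP3 KO these were Egr1 (0.841, at 178 CPM), Dusp1 (0.839, at 1161 CPM) and Klf6 (0.916, at 365 CPM). In MPP4 KO they were Fos (0.869, at 1944 CPM), Jund (0.837, at 58.9 CPM), Egr1 (0.887, at 177 CPM), Ier2 (0.836, at 933 CPM), Dusp1 (0.887, at 937 CPM) and Klf6 (0.917, at 343 CPM). The remaining one was Atf3 in MPP4 WT (0.835), where WT3 had 160 counts. KO3 and KO4 were both 11 weeks old and, per the labels, female. Any part of age or sex in the values of KO3 was not tested.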

How the results depend on the processing

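The counts of members called were the same as given under RLE scaling, DESeq2, edgeR without legacy deviances, both other filters, sex or age as a term, subsets, sums and every library or mouse left out, at 0, except with mouse as the block, which called 2 in WT and 3 in KO between the populations. In that paired fit, leaving out each mouse, added after seeing the data, gave 1 to 3 members in WT. The number of a WT and a KO mouse paired nothing (r of deviations −0.440 to 0.0606), and with the replicate number as a block 0 members were called in MPP3, in MPP4 or over both.

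Of the 18 uncalled KO against WT estimates, 17 changed sign under at least 1 alternative, and Junb in MPP4 did not. With age as a term they became Fos 1.08, Fosb 1.07, Jun 0.56, Junb 0.32, Egr1 0.89, Ier2 0.37, Dusp1 0.93 and Klf6 0.70 in MPP3, and Fos 0.98, Fosb 0.78, Jun 0.37, Egr1 0.53, Ier2 0.19, Dusp1 0.61 and Klf6 0.70 in MPP4. Over all libraries and mice left out in turn, MPP3 values ran from −2.37 to 0.36 for Fos, −1.83 to 0.18 for Fosb, −1.72 to −0.03 for Jun, −1.048 to −0.05 for Junb, −0.64 to 0.62 for Jund, −2.52 to 0.39 for Egr1, −0.82 to 0.18 for Ier2, −1.88 to 0.31 for Dusp1 and −1.39 to 0.46 for Klf6. In MPP4 they ran from −2.70 to 0.38 for Fos, −2.37 to 0.21 for Fosb, −2.02 to −0.11 for Jun, −1.66 to −0.17 for Junb (−0.066 with age as a term), −0.39 to 1.26 for Jund, −2.99 to 0.055 for Egr1, −1.07 to 0.089 for Ier2, −2.26 to 0.12 for Dusp1 and −1.27 to 0.44 for Klf6. The cause was not tested. Agreement stayed between 0.905 and 1 under its alternatives, both ends being Spearman's rho, and none called a member (lowest FDR 0.140). With any 1 mouse left out, Pearson's r stayed between 0.952 (Jund) and 0.999 (Ier2). Atf3, tested when no filter was set, was called in no comparison. Depth limited only Atf3 and Fosb in KO2, at a few counts.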

Other observations

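Ebf1 itself varied between mice in MPP3 in much the order of the members, a pattern noticed after the values were seen. It had 5, 21, 91 and 82 counts in MPP3 of WT1 to WT4 and 23, 6, 84 and 6 counts in MPP3 of KO1 to KO4, so that WT3, WT4 and KO3 were highest, as for Fos, with both genotypes in the same range. Over the 8 mice, log2 CPM of Ebf1 and Fos in MPP3 had r = 0.886 and rho = 0.857, and r = 0.940 without the 2 mice farthest in Fos. In MPP4 the same relation gave r = −0.296 and rho = −0.286, and r = 0.258 without the same 2 mice. Both genotypes were pooled in these correlations. In MPP4, Ebf1 lay at 3.32 to 6.19 CPM in WT and at 17.6 to 24.9 CPM in KO. These are descriptions with no test, since Ebf1 was picked for this order. Ebf1 had at most 2.23 CPM in MPP3, which rests on few counts.

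Hspa1a, an inducible heat shock gene, also differed between mice and agreed between their libraries (SD 2.48, r 0.983) but in another order, and its r with the members was 0.245. In MPP3 it was at 52.8, 59.3, 49.5 and 1.62 CPM in WT1 to WT4 and at 23.2, 1.33, 75.6 and 23.7 CPM in KO1 to KO4. WT1 and WT2 were thus high in Hspa1a and low in Fos, and WT4 the reverse. Hspa1a was singled out after its values were seen.

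Among the 26 genes with an r above 0.9 with the members, 10 were on the list of other immediate early genes. H3f3b, which encodes the replication-independent histone H3.3, was among the rest and was singled out after its values were seen. H3f3b was at 2159, 2586, 3955 and 3206 CPM in MPP3 WT and at 3032, 2395, 3868 and 2417 CPM in MPP3 KO, a narrower range than that of any member, in an order close to that of Fos.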
